A study of Mus musculus with 74 samples.

Results

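The respiratory chain was described through its genes in 74 single cells of the mouse pro-epicardial organ. The members were the protein-coding genes whose mouse symbol starts with Nduf, Uqcr, Sdh followed by a, b, c or d, Cox4 to Cox8, Atp5 or mt-. There were 106 of them among 30323 genes in the table, 93 encoded in the nucleus and 13 in the mitochondrial genome, and the rule reads symbols alone. The nuclear members comprised 36 subunits of complex I and 8 of its assembly factors, 4 genes of complex II, 8 of complex III, 20 of complex IV and 17 of complex V. The mitochondrial members comprised 7 genes of complex I, 1 of complex III, 3 of complex IV and 2 of complex V. Detection in a cell meant at least 5 counts. By that rule 82 members were detected in all 74 cells, and 100 members (87 nuclear, 13 mitochondrial) were detected in 10% of the cells or more, the filter used for every fold below. The 6 members under the filter were Cox6a2, Ndufa4, Ndufa4l2, Cox7b2, Cox8b and Cox8c, all nuclear genes of complex IV.

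The respiratory chain carries electrons from nutrients to oxygen across the inner mitochondrial membrane. Complex I (NADH dehydrogenase) and complex II (succinate dehydrogenase) pass electrons to ubiquinone, complex III (the cytochrome bc1 complex) passes them to cytochrome c, and complex IV (cytochrome c oxidase) passes them to oxygen. The proton gradient that complexes I, III and IV build drives complex V, the ATP synthase. Every complex except complex II mixes subunits imported from the cytosol with subunits translated inside the mitochondrion, and several subunits of complexes IV and V exist as isoforms from separate genes, some of which are typical of heart and skeletal muscle. Contracting cardiomyocytes are among the cells with the largest mitochondrial content, whereas the pro-epicardium is a mesothelial cell cluster next to the inflow of the embryonic heart.

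The cells came from C57BL/6 embryos at embryonic day 9.5 that carried Tbx18Cre, a Cre recombinase driven by Tbx18, and the mTmG membrane reporter, and were sorted by flow cytometry after digestion of the organ. All 74 belong to this 1 group, whose source is described as Tbx18Cre labeled, without treatment or control. Both the Cre and the reporter are thus shared by every cell. The labels name no embryo, litter or sequencing batch, so all cells count as a single sample, without tests or p-values. Each error is an SD over cells or an exact 95% interval, Clopper-Pearson for shares of cells and Poisson for summed counts. The first treats cells as independent draws and the second treats reads so. Cells of unknown embryos may not be independent, and reads without molecular identifiers are not independent molecules. The intervals can therefore be too narrow, and they do not cover differences between embryos. Total counts per cell ranged from 216177 to 2618538 with a median of 849718. Levels are CPM, the counts of a gene relative to the total of its cell, and levels of different genes are compared only per kilobase of transcript.

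The cells were split by Actc1, the cardiac alpha-actin of the sarcomere. There were 9 Actc1-high cells (5000 CPM or more, observed range 8840 to 29645), 51 Actc1-low cells (under 500 CPM, highest value 420, 26 of the 74 cells at 0) and 14 intermediate cells (530 to 4759 CPM). Around each boundary, 7 cells lay within 2-fold of it. The 17 cardiomyocyte markers together held 2.30% to 8.02% of counts in Actc1-high cells and 0.0801% to 0.845% in Actc1-low cells. The label of pro-epicardial cell was borne out unevenly by its markers. The summed level of 11 epicardial markers had a lowest, median and highest value of 221, 2189 and 4616 CPM in Actc1-low cells and 202, 254 and 958 CPM in Actc1-high cells, and in the latter Lrrn4 was at 0 in every cell and the medians of Wt1 and Lhx9 were 0. A second split separated 34 Lhx9-positive cells (5 or more counts, lowest 15) from 31 Lhx9-negative cells (highest 2) among the 65 cells outside the Actc1-high group. Lhx9 encodes a LIM-homeodomain factor of the pro-epicardium. The groups rest on values from the same cells, so differences between them are descriptions.

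Nuclear transcripts of the chain were abundant and broadly present. Summed over 93 genes they took a median of 2.36% of the counts of a cell (range 1.94% to 4.07%). Among the 87 nuclear members past the filter, the mean level per length had a median of 276 CPM per kb. By complex the medians were 213 CPM per kb for complex I, 243 for II, 486 for III, 458 for IV and 542 for V. The order of III, IV and V changed with other gene lengths, as given below. The 8 complex I assembly factors, which build the enzyme but are not part of it, stood lower, with a median of 24.7 CPM per kb and a highest value of 59.2 CPM per kb. None of these 8 was detected in every cell. The plot of levels per length shows that the complexes overlap and that the assembly factors lie near the bottom.

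**Figure D1:**
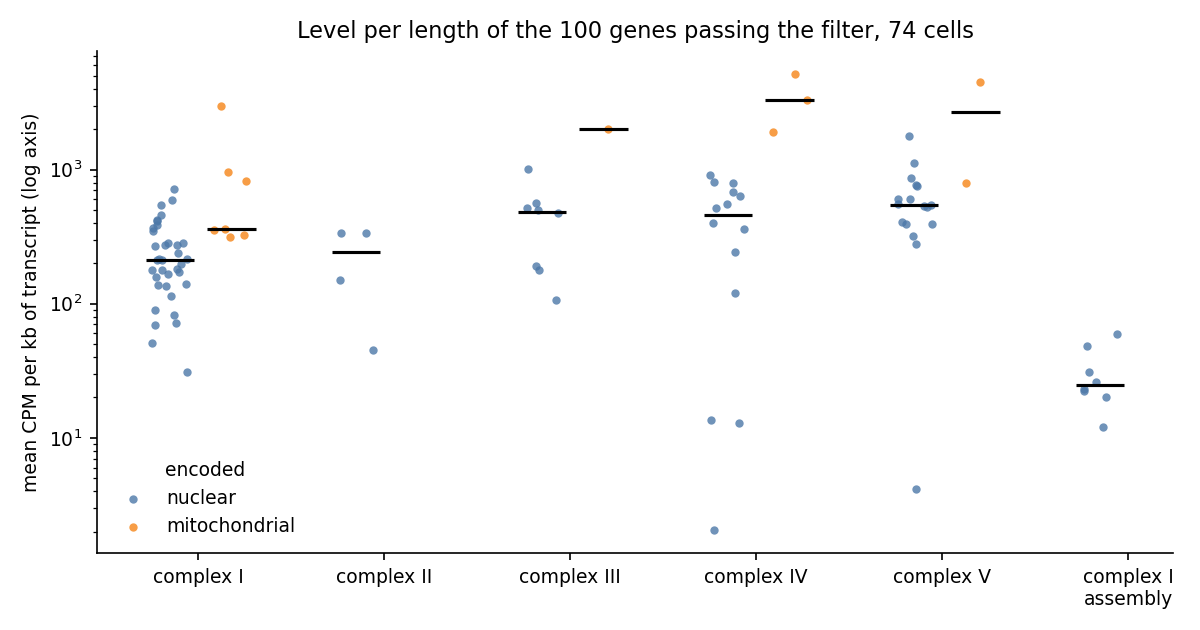
Mean CPM per kb of transcript (log axis) of the 100 members that passed the detection filter, by complex, with nuclear genes in blue and mitochondrial genes in orange; points are genes and bars their medians. The 8 assembly factors do not exceed 59.2 CPM per kb, and the highest point is mt-Co3 at 5191 CPM per kb.

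In complex I, the highest levels per length (mean ± SD over 74 cells) were those of the accessory subunits Ndufb8 at 721 ± 206 CPM per kb, Ndufa7 at 590.2 ± 148 and Ndufc1 at 549 ± 171, and the lowest was that of Ndufa9 at 31.1 ± 26.1, which was detected in 60 of 74 cells. Of the 5 core subunits that carry the flavin or iron-sulfur clusters, Ndufs7 (275 ± 105 CPM per kb) lay above the median of the complex and Ndufs8 (213 ± 90.9) at it. Ndufv2 (179 ± 56.5), Ndufv1 (135 ± 46.4) and Ndufs1 (69.6 ± 35.0) lay below it. In complex II, the iron-sulfur subunit Sdhb stood at 338 ± 105 and the membrane anchor Sdhd at 336 ± 120.4 CPM per kb, which differ by far less than their SD. The flavoprotein Sdha stood at 149 ± 52.5 and the other anchor, Sdhc, at 45.4 ± 18.6 CPM per kb. In complex III, the small subunits Uqcr11 (1018 ± 382 CPM per kb), Uqcr10 (563 ± 215) and Uqcrh (518 ± 242) led, and the core protein Uqcrc2 (107 ± 39.9) was lowest.

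Complex IV was led by Cox8a (915 ± 315 CPM per kb), Cox4i1 (806 ± 218) and Cox6b1 (798 ± 310.2), whose SDs overlap. In complex V, Atp5b, the catalytic beta subunit of the ATP synthase, had the highest level per length of any nuclear member, 1788 ± 434 CPM per kb. It was followed by Atp5g3 (1118 ± 463), a gene for the membrane c subunit, and Atp5h (862 ± 246), a subunit of the peripheral stalk. Atp5s, which is named as an ATP synthase gene but has been described as a coupling factor, was at 4.18 ± 8.63 CPM per kb and detected in 21 cells. Among the assembly factors Ndufaf2, Ndufaf8 and Ndufaf7 had 59.2 ± 34.7, 48.6 ± 28.5 and 31.0 ± 18.8 CPM per kb, and Ndufaf4 was lowest at 12.0 ± 7.57. Gene lengths were those of the shortest principal transcript. With the union of exons, the nuclear median became 140.1 CPM per kb. The medians of complexes III, IV and V became 204, 210 and 181 CPM per kb. With the longest principal transcript they were 344, 416 and 403, so complex V led only with the shortest.

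The 13 mitochondrial genes took a median of 2.02% of counts per cell (range 0.752% to 4.43%), and their levels per length were spread widely although most are cut from the same long precursor RNA. The highest were mt-Co3 at 5191 ± 2008 CPM per kb and mt-Co2 at 3289.5 ± 1268, both core subunits of complex IV, mt-Atp6 of the ATP synthase at 4531 ± 2052, and mt-Nd1 of complex I at 2974 ± 1244. The bc1 subunit mt-Cytb stood at 1992 ± 806 and the catalytic oxidase subunit mt-Co1 at 1921 ± 660.4 CPM per kb. The remaining complex I genes were lower, with mt-Nd2 at 962 ± 346, mt-Nd4 at 819 ± 324, mt-Nd4l at 359.8 ± 172, mt-Nd5 at 355 ± 133, mt-Nd6 at 327 ± 157 and mt-Nd3 at 315 ± 177 CPM per kb. The last 4 of these do not differ beyond their spread. mt-Nd6, transcribed from the light strand, shares 14 bases with mt-Nd5 on the other strand, and no source used here says that counting used strand. In the plot in map order, the high values run from mt-Nd1 to mt-Co3 with low bars between them, and mt-Cytb stands apart from its low neighbours.

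**Figure D2:**
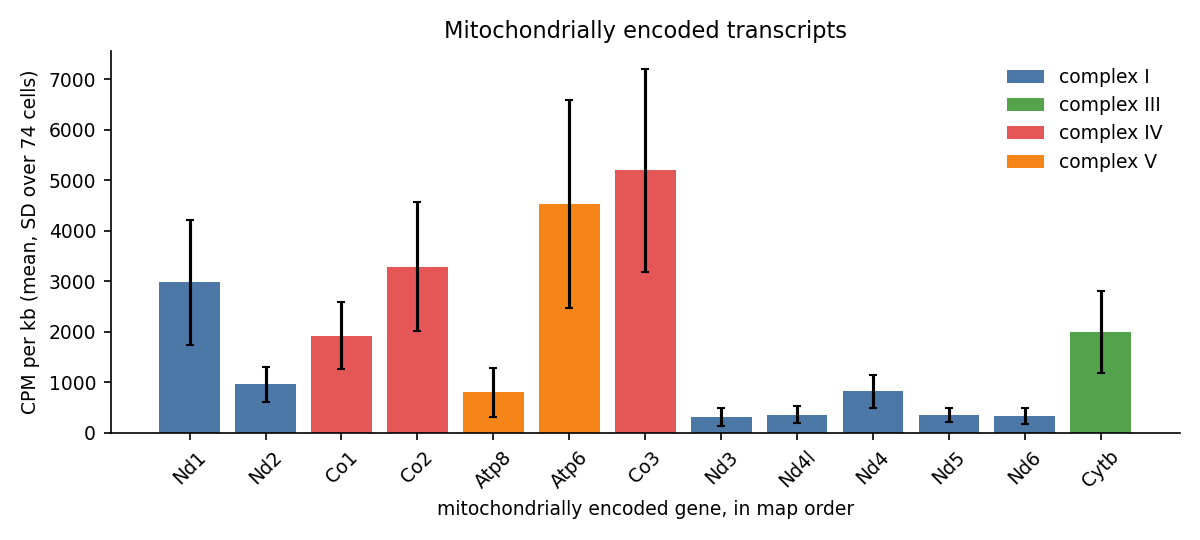
Mean CPM per kb of each mitochondrially encoded gene in the order of the genome, with error bars of 1 SD over 74 cells and colours by complex. mt-Co3 and mt-Atp6 are highest, at 5191 and 4531 CPM per kb, and mt-Nd3 is lowest at 315, or 852 with the counts of its nuclear copy Gm28438 added.

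Neighbouring genes of the ATP synthase showed how read assignment limits these values. mt-Atp8 (798 ± 489 CPM per kb, chromosome M, 7766 to 7969, GRCm38) and mt-Atp6 (7927 to 8607) lie on the same RNA and share 43 bases, printed here in capitals between their flanks at chrM:7907-7989 on the plus strand.
mt-Atp8/mt-Atp6: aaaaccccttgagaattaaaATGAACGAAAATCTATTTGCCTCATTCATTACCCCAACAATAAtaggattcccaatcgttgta
Reads from the capitals belong to both genes, and mt-Atp8 is only 204 bases long. mt-Nd4l and mt-Nd4 likewise share 7 bases.

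A second limit came from nuclear copies of the mitochondrial genome. mt-Nd3 (chromosome M, 9459 to 9806) differs from the pseudogene Gm28438 on chromosome 1 (24612775 to 24613119) at a single base of the compared transcripts, T3C, counted from 1 at the 5′ end of the mt-Nd3 transcript. The first 33 bases of each are shown with that base in capitals.
mt-Nd3: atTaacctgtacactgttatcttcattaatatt
Gm28438: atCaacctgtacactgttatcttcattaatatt
The lowest, median and highest values over the 74 cells were 0, 98.8 and 279 CPM for mt-Nd3 and 34.1, 167 and 461 CPM for the copy. With both added, mt-Nd3 stood at 852 ± 391 CPM per kb in place of 315. That was above the means of mt-Nd4l, mt-Nd5 and mt-Nd6, and not apart from mt-Nd4 beyond their spread. How the counts of this pair divide between the copies is uncertain, and the same holds for mt-Co3, mt-Co2, mt-Atp6 and mt-Nd4l, which have copies identical over nearly their whole length.

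Nuclear and mitochondrial transcripts of the chain varied largely apart from each other. Spearman's rho between their shares of counts was 0.19 over 74 cells, whereas the nuclear sums of complexes IV and V had a rho of 0.87 and those of I and IV 0.85. Complex II had a rho of 0.40 with complex I, 0.41 with IV, 0.47 with V and 0.63 with III. Between genes, the mean pairwise rho was 0.23 among nuclear subunits, 0.69 among mitochondrial genes and 0.09 between the 2 sets, beside 0.01 among the genes at 100 CPM or more. All CPM values share their total as denominator, and genes of like level share depth. The share of nuclear members had a rho of -0.10 with total counts and -0.35 with the number of genes detected, and the mitochondrial share -0.06 and -0.28; the part of either in the results was not tested. Nuclear members at 100 CPM or more had a median coefficient of variation of 34.3% over 72 genes. It was 44.2% over all 2236 genes at 100 CPM or more, which include the members and were not matched to them in level. For the 13 mitochondrial genes it was 40.4%. The ratio of mitochondrial to nuclear counts was 0.833 (range 0.265 to 1.51).

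The nuclear share of counts set Actc1-high cells apart from Actc1-low cells, and the mitochondrial share did not. The nuclear share had lowest, median and highest values of 1.94%, 2.28% and 2.87% in 51 Actc1-low cells, 2.00%, 2.57% and 3.22% in 14 intermediate cells and 3.22%, 3.84% and 4.07% in 9 Actc1-high cells. Every Actc1-high cell was thus above every Actc1-low cell. Intermediate cells overlapped Actc1-low cells over most of their range, and the highest of them lay just under the lowest Actc1-high cell, both at 3.22% when rounded. The mitochondrial share was 0.930%, 1.90% and 3.98% in Actc1-low cells, 0.753%, 2.22% and 3.07% in intermediate cells and 1.39%, 2.48% and 4.43% in Actc1-high cells, with broad overlap. The ratio of mitochondrial to nuclear counts accordingly had medians of 0.876, 0.807 and 0.649 in low, intermediate and high cells, also overlapping. Spearman's rho of the nuclear share with Actc1 was 0.55 over 74 cells, 0.32 over the 65 cells outside the Actc1-high group and 0.17 over the 51 Actc1-low cells. For the mitochondrial share it was 0.29 over 74 cells, 0.29 over the same 65 cells and 0.36 over the 51 Actc1-low cells. Within Actc1-low cells the mitochondrial rho was thus the larger. Depth and complexity moved with the state. Median total counts were 808142 in Actc1-high and 892815 in Actc1-low cells, and median genes detected 7674 and 7994, and their part in the result was not tested. The difference in nuclear share is shown in the plot of shares by state.

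**Figure D3:**
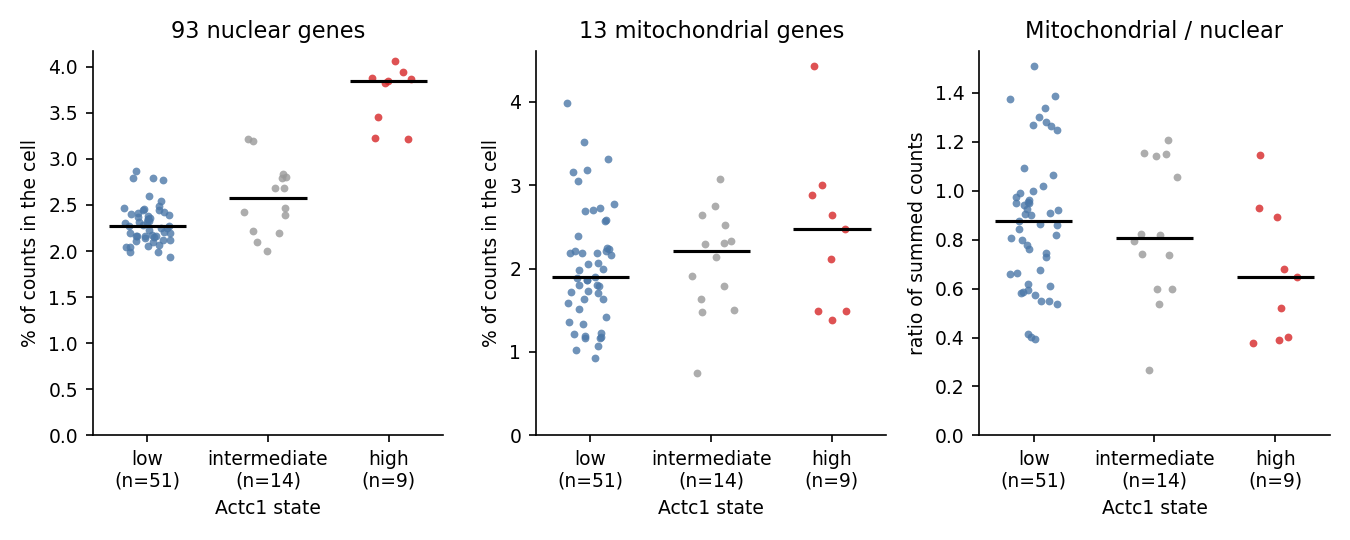
Share of a cell's counts in the 93 nuclear genes (left) and the 13 mitochondrial genes (middle), and their ratio (right), by Actc1 state; each point is a cell and bars are medians. The 9 Actc1-high cells lie between 3.22% and 4.07% in the left panel, above all 51 Actc1-low cells, and overlap them in the other panels.

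The difference ran through all 5 complexes. The summed nuclear complex I genes had lowest, median and highest values of 4799, 6425 and 7929 CPM in Actc1-low cells and 7624, 9335 and 10260.5 CPM in Actc1-high cells. For complex II they were 913, 1218 and 1770.1 CPM in Actc1-low cells and 1292, 2049 and 2491 CPM in Actc1-high cells. These sums overlapped between the states. Complex III gave 1319, 1905 and 2779.9 CPM in Actc1-low cells and 2761, 3435 and 3679 CPM in Actc1-high cells. Complex IV gave 2619, 3517 and 4705 CPM in Actc1-low cells and 4815, 6192 and 7314 CPM in Actc1-high cells. Complex V gave 7433, 9288 and 12467 CPM in Actc1-low cells and 14081, 15827 and 18358 CPM in Actc1-high cells. For complexes IV and V the lowest Actc1-high cell lay above the highest Actc1-low cell, and for the others the ranges overlapped.

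Folds between the states were log2 ratios of the mean CPM plus 1. Over 11511 genes that passed the filter the median was -0.18, with 4577 above 0. Over the 87 nuclear members it was 0.60, with 83 above 0, and over the 13 mitochondrial members 0.26, with 13 above 0. By complex the nuclear medians were 0.50 for I, 0.66 for II, 0.75 for III, 0.77 for IV, 0.71 for V and 0.67 for the assembly factors. The shift was broad and modest rather than large in a few genes. Past 2-fold higher in Actc1-high cells were 7 of 100 members, beside 8.35% of all genes tested, and past 2-fold lower 0 members, beside 17.0%. At 1.5-fold, 47 of the 87 nuclear members (54%) and 0 of the 13 mitochondrial members were higher, beside 16.4% of all genes, and 1 member was lower, beside 29.3%. The 47 comprised 11 of 14 genes of complex IV, 12 of 17 of complex V, 5 of 8 of complex III, 2 of 4 of complex II, 12 of 36 of complex I and 5 of 8 assembly factors. Members are mostly abundant genes. Among the 2236 genes at 100 CPM or more the median log2 fold was -0.22 and 12.8% were past 2-fold in either direction, beside 4.71% of the 85 members at that level. In the plot of folds between these states, the nuclear median of every complex sits above the line of all genes, while single genes such as Atp5s and Atp5g2 lie below it.

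**Figure D4:**
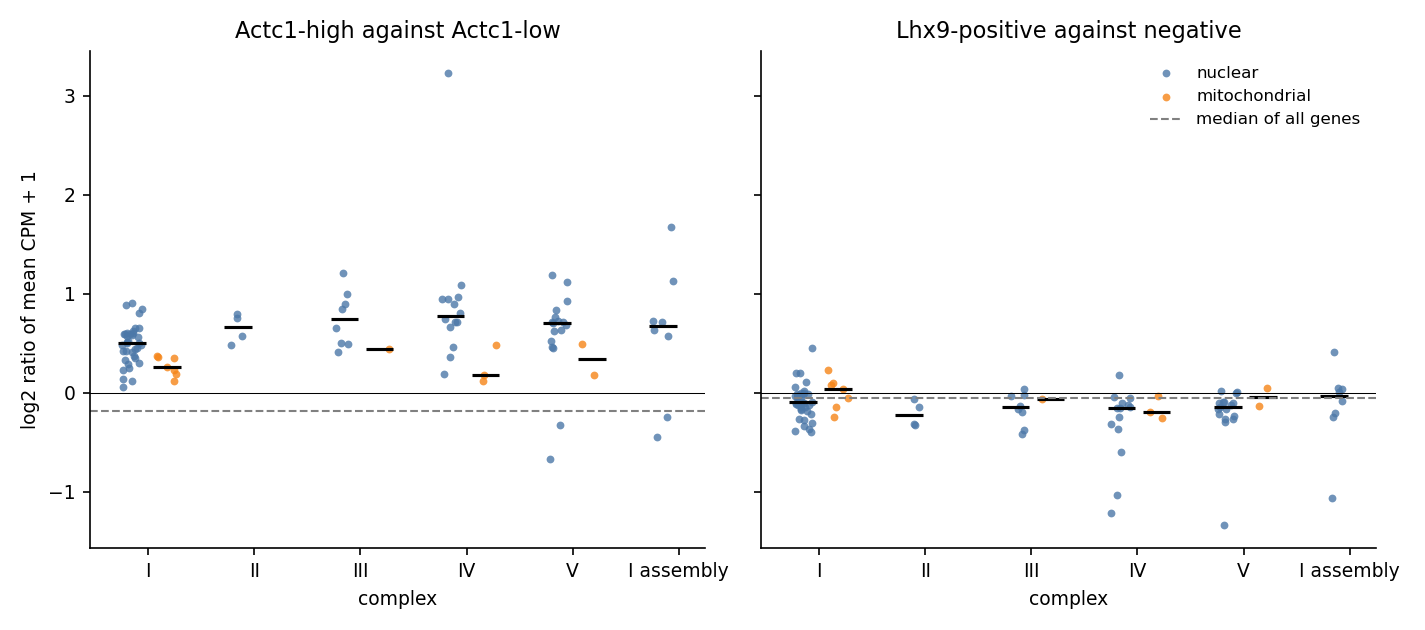
Log2 ratio of mean CPM plus 1 for the 100 members past the filter, by complex, between Actc1-high and Actc1-low cells (left) and between Lhx9-positive and Lhx9-negative cells (right); points are genes, bars their medians, and the dashed line is the median of 11511 genes. In the left panel the nuclear medians run from 0.50 to 0.77 and the dashed line is at -0.18.

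The most abundant nuclear member also separated the states most cleanly. Atp5b (ENSMUSG00000025393, chromosome 10, 128083273 to 128090391, plus strand, GRCm38) had a lowest, median and highest level of 2173, 3116 and 4101 CPM in Actc1-low cells, 2443, 3650.3 and 4703 CPM in intermediate cells and 4483, 5088 and 6112 CPM in Actc1-high cells, a log2 fold of 0.71. It was the 1 member of 100 whose Actc1-high values all lay above all Actc1-low values, beside 0.174% of all genes, and 0 members had all values below, beside 0.00869%. Its rho with Actc1 over 74 cells was also the highest of the members, 0.58, followed by Cox5b, a regulatory subunit of complex IV, with 0.55. The lowest were the complex I subunits Ndufs1 with -0.15 and Ndufs6 with -0.12. Ndufs1 nonetheless had a log2 fold of 0.60, with 9.74, 177 and 388 CPM (lowest, median, highest) in Actc1-low and 90.3, 239 and 422 CPM in Actc1-high cells.

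The 7 members past 2-fold fell in complexes III, IV and V and among the assembly factors. Uqcrh, the hinge subunit that helps cytochrome c dock on complex III, had 128, 219.5 and 480.2 CPM (lowest, median and highest) in Actc1-low and 323, 555 and 858 CPM in Actc1-high cells, a log2 fold of 1.21. Cox6b1, a complex IV subunit on the intermembrane side, had 230.3, 405 and 724 and 627, 849 and 1125 CPM, a log2 fold of 1.09. For both genes the ranges overlapped while the median of Actc1-high cells exceeded the highest Actc1-low cell. Atp5g3 had 384, 625 and 1061 and 1003, 1573 and 1884 CPM (log2 fold 1.19). Atp5o, the stalk subunit that confers sensitivity to oligomycin, had 251, 403 and 819 and 753, 887 and 1094 CPM (log2 fold 1.11). The remaining 3 were less abundant and overlapped widely: the isoform Cox7a1, described below, and the assembly factors Ndufaf5, with 0, 17.2 and 123 and 31.0, 68.2 and 90.7 CPM and a log2 fold of 1.67, and Ndufaf3, with 0, 22.4 and 88.6 and 0, 31.7 and 162 CPM and 1.13. Ndufaf3 was no longer past 2-fold (6 of the 7 remained) when the Actc1-high cell of lowest depth was left out. With Actc1 cutoffs of 2000 and 200 CPM, Atp5g3, Atp5o, Cox6b1 and Ndufaf3 were all no longer past 2-fold, and 3 of the 7 remained. The 1 member past 1.5-fold in the other direction was Atp5s, at -0.66, with 0, 0 and 82.4 CPM in Actc1-low and 0, 0 and 17.3 CPM in Actc1-high cells.

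Mitochondrial genes differed little between the states. Their log2 folds ran from 0.12 to 0.50, and the largest were those of mt-Atp8 (0.50), mt-Co2 (0.48) and mt-Cytb (0.44). mt-Cytb had 1031, 1959 and 4816 CPM (lowest, median and highest) in Actc1-low and 1536, 2531 and 5478 CPM in Actc1-high cells, which overlap over most of their range. The catalytic subunit mt-Co1 had 1351, 2794 and 7449 and 1209.7, 3153 and 5287 CPM, a log2 fold of 0.12. Intermediate cells lay close to Actc1-low cells, with a median log2 fold of 0.12 over nuclear members (69 of 87 above 0) and 0.09 over mitochondrial members. Over all genes it was -0.04, with 5336 of 11511 above 0.

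Isoforms typical of striated muscle were rare. Cox7a1 and Cox6a2 were detected in a larger share of Actc1-high cells than of the other cells, while Cox8b, described below, was at 0 in every cell. Cox7a1 (ENSMUSG00000074218, chromosome 7, 30184144 to 30186078), the heart and muscle form of subunit VIIa of complex IV, was detected in 7 of 9 Actc1-high cells (77.8%, interval 39.99% to 97.2%), 5 of 14 intermediate cells (35.7%, interval 12.8% to 64.9%) and 6 of 51 Actc1-low cells (11.8%, interval 4.44% to 23.9%). Its level was 3.44, 15.2 and 49.5 CPM (lowest, median and highest) in Actc1-high cells and 0, 0 and 13.4 CPM in Actc1-low cells, a log2 fold of 3.23. The summed counts behind these were 135 (Poisson interval 113 to 160) and 64 (49.3 to 81.7). Its general counterpart Cox7a2 was detected in all 74 cells, at 173, 297 and 546 and 89.6, 225 and 388 CPM. Per length, Cox7a1 made up a median of 6.21% of the Cox7a1, Cox7a2 and Cox7a2l transcripts of an Actc1-high cell (range 1.41% to 15.9%) and 0% of those of an Actc1-low cell (range 0% to 6.80%). Cox6a2 (ENSMUSG00000030785, chromosome 7, 128205435 to 128206387), the muscle form of subunit VIa, was detected in 4 of 9 Actc1-high cells (44.4%, interval 13.7% to 78.8%), 0 of 14 intermediate cells and 1 of 51 Actc1-low cells (1.96%, interval 0.0500% to 10.4%). It reached 48.3 CPM in 1 Actc1-high cell, while Cox6a1 was detected in every cell at 409, 550.3 and 922 CPM in that group. With every cell thinned to 350000 counts, which left out 2 intermediate and 5 Actc1-low cells, Cox7a1 remained detected in 5 of 9 Actc1-high, 3 of 12 intermediate and 1 of 46 Actc1-low cells, and Cox6a2 in 3 of 9, 0 of 12 and 0 of 46.

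The other tissue forms were read in the same way. Cox6b2, known from testis, was present at 5 counts in 4 of 9 Actc1-high, 7 of 14 intermediate and 17 of 51 Actc1-low cells. Cox4i2, the form known from lung and from cells low in oxygen, was found in 2 of 9 Actc1-high, 2 of 14 intermediate and 5 of 51 Actc1-low cells, with a highest value of 15.0 CPM. Its log2 fold between Actc1-high and Actc1-low cells was 0.97, and it passed 2-fold with scran size factors, with sarcomere and mitochondrial genes left out of the denominator, and with medians over cells, as Cox6b2 (log2 fold 0.18) did with medians. Cox4i1 was at 375, 573 and 1101 CPM (lowest, median and highest) over all 74 cells. Counts of Cox8b, the heart and muscle form of subunit VIII, of Cox7b2 and of Cox8c were 0 in every cell, while Cox8a and Cox7b were detected in all 74. By an approximate limit of 3 over 74 cells, and not the exact interval, those zeros allow up to 4.05% of cells with counts. They set no limit on cells that express these genes. Ndufa4, named for complex I but described as a subunit of complex IV, was detected in 4 cells at most 18.4 CPM, and its paralog Ndufa4l2 in 3. The pseudogenes of Ndufa4 in the table, Gm14450 and Gm14630, were at 0 in every cell, and the sources used here do not say which Ndufa4 transcripts the reference of the counting held, so its level is uncertain. The plot of isoform families shows the muscle forms scattered near 0 in Actc1-low cells.

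**Figure D5:**
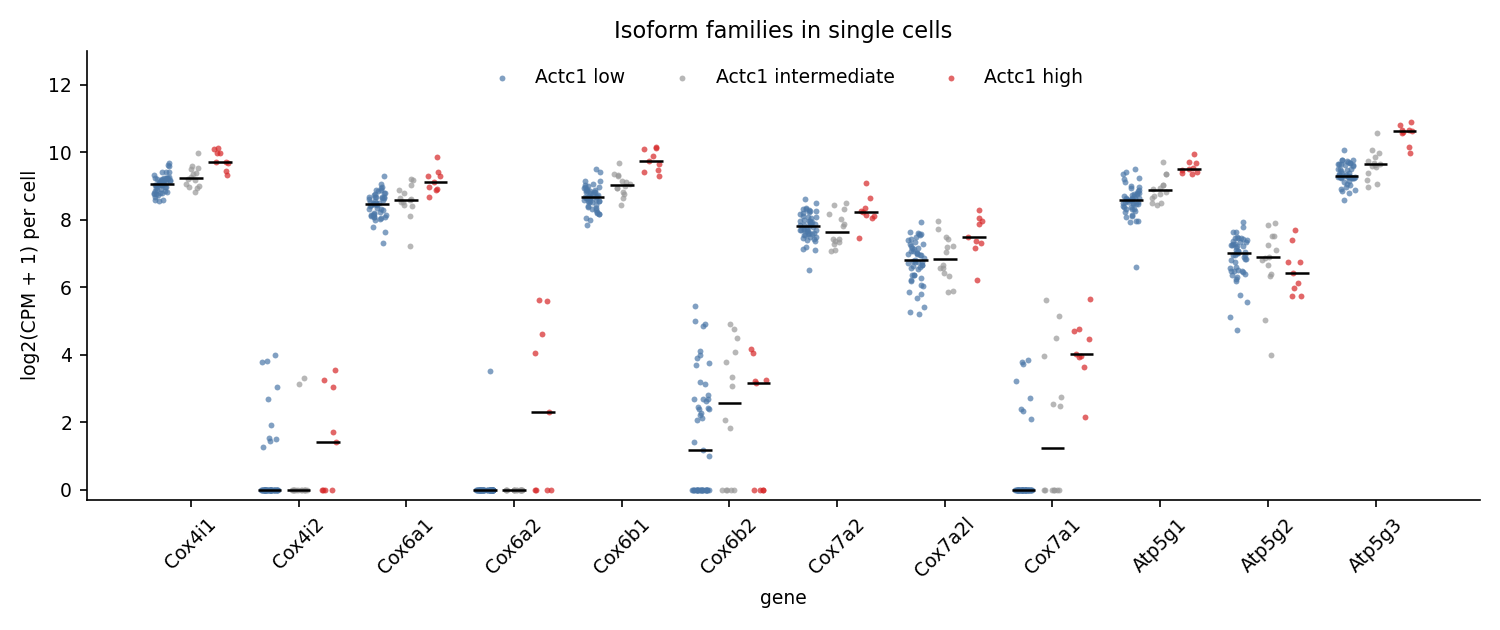
Log2(CPM plus 1) of 12 isoform genes in each of 74 cells, coloured by Actc1 state; bars are medians. At the detection rule of 5 counts, Cox7a1 and Cox6a2 are found in 7 and 4 of 9 Actc1-high cells, whereas the general forms are above 0 in every cell.

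The 3 genes for the identical c subunit of the ATP synthase differed in how they stood between the states. Atp5g3 and Atp5g1 were higher in Actc1-high cells, with log2 folds of 1.19 and 0.93, and Atp5g2 was lower, at -0.33. Atp5g1 had 96.5, 383 and 726 CPM (lowest, median and highest) in Actc1-low and 656, 727 and 977 CPM in Actc1-high cells, and Atp5g2 25.6, 129 and 241 and 52.1, 84.0 and 207 CPM. Per length, Atp5g3 took a median of 49.4% of the 3 in Actc1-low and 59.4% in Actc1-high cells, and Atp5g2 14.6% and 5.33%, and the ranges of both genes overlapped. Atp5g2 is uncertain, because the transcribed pseudogene Gm10175 on chromosome 7 is identical to it over 645 bases and had 23.1, 212 and 369 CPM (lowest, median and highest over 74 cells). With both added, the log2 fold was -0.11, and the share of Atp5g2 became 32.3% in Actc1-low and 17.5% in Actc1-high cells. That of Atp5g3 became 39.9% and 52.2%.

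Since the nuclear members were correlated over cells, their promoters were read for the core sites of 2 factors known to act on respiratory genes, NRF-1 (GCGCANGCG) and the ETS family, to which GABP belongs (CCGGAAGT), on both strands and in the 300 bases from 250 before to 50 after the start of the RefSeq transcript (GRCm38.p6). Promoters of 74 of the 93 nuclear members were matched by symbol. The NRF-1 letters were in 22 of 74 (29.7%), beside 10.1% of 16294 protein-coding genes of the table and 7.03% of all 27025 genes with a promoter sequence. By complex they were in 7 of 13 genes of complex V, 8 of 32 of complex I, 2 of 3 of complex II, 2 of 5 of complex III and 1 of 14 of complex IV, and in 2 of 7 assembly factors. The ETS letters were in 5 of 74 (6.76%), beside 5.99% of protein-coding genes. The comparison genes include the members and were not matched to them in level or base content, and the part of either was not tested. Shown are the 250 bases before the start of Atp5h (chr11:115419920-115420169, minus strand), which holds both motifs, Cox6a1 (chr5:115348959-115349208, minus strand) and Sdha (chr13:74350241-74350490, minus strand), with NRF-1 letters, Uqcrh (chr4:116075071-116075320, minus strand), a member past 2-fold with ETS letters, and the muscle isoform Cox7a1 (chr7:30183921-30184170, plus strand), with neither. Capitals mark the motifs, each line runs 5′ to 3′ on the strand of the gene, and the 5 were chosen after their motifs were seen.
Atp5h: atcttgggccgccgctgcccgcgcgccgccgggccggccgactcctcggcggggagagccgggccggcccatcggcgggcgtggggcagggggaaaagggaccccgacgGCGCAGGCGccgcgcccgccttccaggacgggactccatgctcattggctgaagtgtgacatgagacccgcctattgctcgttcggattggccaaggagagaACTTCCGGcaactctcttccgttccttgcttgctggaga
Cox6a1: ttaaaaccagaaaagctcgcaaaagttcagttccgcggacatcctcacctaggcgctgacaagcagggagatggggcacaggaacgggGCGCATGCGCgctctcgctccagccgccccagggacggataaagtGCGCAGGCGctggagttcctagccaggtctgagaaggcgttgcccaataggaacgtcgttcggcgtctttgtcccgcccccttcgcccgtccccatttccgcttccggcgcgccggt
Sdha: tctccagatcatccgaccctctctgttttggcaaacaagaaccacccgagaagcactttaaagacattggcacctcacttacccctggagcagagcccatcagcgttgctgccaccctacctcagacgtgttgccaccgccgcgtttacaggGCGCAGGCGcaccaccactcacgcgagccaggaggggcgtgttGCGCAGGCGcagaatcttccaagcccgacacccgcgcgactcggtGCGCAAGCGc
Uqcrh: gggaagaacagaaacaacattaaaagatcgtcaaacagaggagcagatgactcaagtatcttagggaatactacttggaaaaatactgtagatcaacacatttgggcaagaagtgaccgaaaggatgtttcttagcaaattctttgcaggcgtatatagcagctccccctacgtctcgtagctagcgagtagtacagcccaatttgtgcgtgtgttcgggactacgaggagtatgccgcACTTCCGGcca
Cox7a1: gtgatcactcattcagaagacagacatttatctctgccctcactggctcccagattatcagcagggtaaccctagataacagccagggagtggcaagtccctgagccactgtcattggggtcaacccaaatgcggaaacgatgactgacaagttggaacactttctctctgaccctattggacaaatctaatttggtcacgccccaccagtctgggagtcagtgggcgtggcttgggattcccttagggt
In Cox6a1 a match on each strand overlaps at the first block of capitals. The log2 folds of these 5 genes between Actc1-high and Actc1-low cells were 0.63, 0.71, 0.57, 1.21 and 3.23. A match is a description of letters and not of binding.

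Outside the Actc1-high group, Lhx9-positive and Lhx9-negative cells differed in the chain by less than their spread. The nuclear share was 1.94%, 2.26% and 2.79% (lowest, median and highest) in 34 Lhx9-positive and 1.98%, 2.40% and 3.22% in 31 Lhx9-negative cells, and the mitochondrial share 0.930%, 1.94% and 3.18% against 0.753%, 2.13% and 3.98%. Both overlapped. The median log2 fold was -0.12 over nuclear members (72 of 87 below 0), -0.06 over mitochondrial members and -0.06 over all genes (6367 of 11511 below 0). Past 2-fold were 0 members higher, beside 4.57% of all genes, and 4 lower, beside 7.04%. At 1.5-fold there were 0 higher, beside 9.76%, and 5 lower, beside 16.4%. The 4 were Cox7a1 (log2 fold -1.21), Cox6b2 (-1.04), Ndufaf5 (-1.06) and Atp5s (-1.34), all of low level, and Cox4i2 (-0.60) was the fifth. Cox7a1 was detected in 3 of 34 Lhx9-positive and 8 of 31 Lhx9-negative cells. Actc1 moved with this split, since 2 of the 14 intermediate cells were Lhx9-positive. Among Actc1-low cells alone the nuclear share had a median of 2.26% in 32 Lhx9-positive and 2.32% in 19 Lhx9-negative cells, and Cox7a1 was no longer past 2-fold.

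Genes that feed or use the chain were also read between the Actc1 states, where 16.4% of all genes were 1.5-fold higher, 29.3% were 1.5-fold lower and the median log2 fold was -0.18. Among the 8 electron carriers and ubiquinone genes outside the membership, 6 of 8 genes were 1.5-fold higher and 0 lower, with a median log2 fold of 0.68. They include Cyc1, the cytochrome c1 subunit of complex III whose symbol lies outside the rule (0.79), Etfdh (0.82) and Coq9, of ubiquinone synthesis (1.15), and the lowest were Coq10b (-0.06), Coq7 (0.47) and Cycs, cytochrome c itself (0.62). In a list for the tricarboxylic acid cycle, which supplies the electrons, 8 of 14 genes were 1.5-fold higher and 0 lower, with a median log2 fold of 0.61. The list includes Mdh1, which encodes the cytosolic malate dehydrogenase. The summed level of the list had lowest, median and highest values of 2223, 3017 and 3654 CPM in Actc1-low and 4208, 5059 and 5712 CPM in Actc1-high cells, without overlap. Idh3a (2.03) and Mdh1 (1.13) had the largest folds, and Suclg2 (-0.43), Dld (0.48) and Sucla2 (0.50) the lowest. Among genes that move ATP and phosphate, 5 of 7 genes were 1.5-fold higher and 0 lower, with a median log2 fold of 0.68. Slc25a4, the heart and muscle form of the ADP/ATP carrier, had 519.8, 1095 and 1828 CPM (lowest, median, highest) in Actc1-low and 1968, 2729.7 and 3566 CPM in Actc1-high cells (log2 fold 1.28), and its ranges did not overlap. Ckb had a log2 fold of 2.28 and Slc25a5 one of 0.74, and counts of the sarcomeric mitochondrial creatine kinase Ckmt2 were 0 in every cell.

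Other assembly factors and regulators were mixed. Of assembly factors for complexes II to V, 8 of 31 genes were 1.5-fold higher and 3 lower, with a median log2 fold of 0.21. Cox20 (1.22), Lyrm7 (1.12) and Pet100 (1.09) had the highest folds, and Bcs1l (-1.07), Surf1 (-0.99) and Sdhaf3 (-0.91) the lowest. Of regulators of mitochondrial biogenesis and transcription, 2 of 15 genes were 1.5-fold higher and 4 lower, which is near the shares of all genes (16.4% and 29.3%), with a median log2 fold of -0.33 beside -0.18. The coactivator Ppargc1a, known as PGC-1alpha, had 0, 0 and 94.5 CPM (lowest, median, highest) in Actc1-low and 31.8, 129.9 and 218 CPM in Actc1-high cells (log2 fold 3.51), and was detected in 9 of 9 Actc1-high and 10 of 51 Actc1-low cells. Esrra, an orphan receptor that partners it, had a log2 fold of 1.16 that rests on few cells: it was detected in 3 of 9 Actc1-high and 20 of 51 Actc1-low cells, with medians of 1.04 and 4.21 CPM and highest values of 63.4 and 29.8 CPM. The lowest were Yy1 (-1.67), Nrf1, which encodes NRF-1 (-1.33), and Pprc1 (-0.76). Nrf1 had 0, 109 and 354 CPM (lowest, median, highest) in Actc1-low and 1.14, 45.9 and 152 CPM in Actc1-high cells (log2 fold -1.33), and the ranges overlapped. The mitochondrial transcription factor Tfam had a log2 fold of -0.66. In glycolysis, 7 of 17 genes were 1.5-fold higher and 0 lower, with a median log2 fold of 0.40, led by Hk1 (4.19), Pfkp (3.69) and Eno3 (1.77), the last being the muscle enolase, while Eno1 (0.18), Pkm (0.17) and Pgam1 (0.03) had the smallest folds. Over 74 cells, rho of the nuclear share with the summed glycolytic share was 0.26.

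Markers of other cell types were read beside these results. The 4 smooth muscle markers summed to 11.1, 195 and 2964 CPM (lowest, median and highest) in Actc1-low and 1585, 7532 and 13338 CPM in Actc1-high cells, and their part in the result was not tested. The 6 endothelial markers summed to at most 131 CPM in an Actc1-high cell, with Cdh5, Emcn and Tie1 detected in none of 74 cells. The 6 leukocyte markers reached 2.47 CPM there, with Cd52, Tyrobp and Fcer1g not detected, and the 6 erythroid markers 81.8 CPM. The 5 hepatoblast markers reached 164 CPM, with Afp and Hnf4a not detected, and the 4 neural crest markers 26.05 CPM, with Foxd3 not detected. Actc1-low cells reached higher sums: 272 CPM for endothelial, 45.0 for leukocyte, 501 for erythroid, 173 for hepatoblast and 66.1 for neural crest markers. Their medians there were 64.3, 0, 2.79, 0 and 0 CPM in the same order. The part of these cells in the result was not tested. The 6 septum transversum markers summed to 316, 814 and 3029.8 CPM in Actc1-low and 296, 488 and 1012 CPM in Actc1-high cells, and these sums overlapped. Gene by gene, 5 of the 6 were past 2-fold lower in Actc1-high cells, beside 17.0% of all genes, with a median log2 fold of -3.05, and their part in the result was not tested.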

How the data were processed

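RNA of 74 single cells was amplified with SMART-Seq v4 and made into Nextera XT libraries, per the labels' protocols. The deposited values are estimated counts per gene, made by the authors with kallisto, per the submitters' processing notes. These give no version and name the build hg38, although the identifiers are all from mouse Ensembl. No source used here gives the rounding to the whole numbers found in the table. Counts were used as deposited and scaled to CPM by each cell's total, which ran from 216177 to 2618538. Symbols, positions and lengths were taken from GENCODE M21 (GRCm38) for 29936 of the 30323 genes, and 0.346% of counts fell on the other 387. No pair of cells had identical values, and no doublet caller was run on these singly sorted cells.

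Genes at 5 or more counts in at least 10% of cells entered folds, which are log2 ratios of mean CPM plus a pseudocount of 1 CPM, with 2-fold and 1.5-fold as rules of size. All cells come from 1 group with no named embryo, so no test was run. The fold was checked on simulated data with planted changes. The members, gene lists and cell splits were chosen with earlier results of these data known. Named genes were those of the mitochondrial genome, the isoform families, the highest and lowest of each complex, those past 2-fold, the extremes of correlation with Actc1, and the extremes of each other list. Others were added after their values were seen. Near-identical copies were sought with BLAST (identity of at least 90% over at least 50% of the length). Promoters came from RefSeq (GRCm38.p6). Alternatives changed the pseudocount, filter, scaling (scran pooled size factors), detection count, cutoffs and lengths, used medians, or thinned cells to 350000 counts. The software was R 4.3.3 with scran 1.30.0, BLAST 2.17.0, and Python 3.11.15 with SciPy 1.17.1, pandas 2.3.3, numpy 2.4.6 and matplotlib 3.10.9.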

Additional observations from a re-analysis of the deposited data

Results flagged for a closer look

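Counts were also assigned to 7 genes outside the membership that are near-identical copies of members, at mean levels over 74 cells above the limit that a count of 0 allows. Gm10175, a transcribed copy of the ATP synthase gene Atp5g2, had a mean of 212 CPM, beside 123 CPM for Atp5g2. Gm4459, a copy of the complex I gene Ndufab1, had 11.3 CPM. The other 5 lie within a stretch of chromosome 1 that is a nuclear copy of mitochondrial DNA. Gm28437, the copy of mt-Co3, had 543 CPM, Gm28438, the copy of mt-Nd3, 187 CPM, Gm10925, the copy of mt-Atp6, 147 CPM, Gm28661, the copy of mt-Co2, 96.1 CPM and Gm10222, the copy of mt-Nd4l, 1.79 CPM. The means of Gm10925 and Gm28661 lay far above their medians of 14.5 and 8.16 CPM, with highest values of 1661 and 1116 CPM. Gm10222 was detected in 4 cells. For mt-Nd3 the member had 110 CPM, so its copy held more counts than the gene. Whether these counts come from the copies or from the members was not tested.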

How the results depend on the processing

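The median log2 fold of nuclear members between Actc1-high and Actc1-low cells ran from 0.47 to 0.67 over 9 alternatives, beside 0.60, and that of mitochondrial members from 0.17 to 0.34, beside 0.26. Between Lhx9-positive and Lhx9-negative cells the nuclear median ran from -0.14 to -0.09. The median of all genes was -0.18 and moved to -0.01 with medians over cells and to 0 without the filter. Counts past 2-fold were less stable. The 7 members higher in Actc1-high cells became 47 at 1.5-fold, 11 with sarcomere and mitochondrial genes left out of the denominator and 3 with Actc1 cutoffs of 2000 and 200 CPM, and the 0 members lower became 1 at 1.5-fold. Without the Actc1-high cell of lowest depth, or without the 2 of highest Actc1, Ndufaf3 left the 7, and in the second case Ndufaf6 joined them. The 4 members lower in Lhx9-positive cells became 0 with a pseudocount of 10 CPM, 1 with medians over cells and 1 with Lhx9 called at 1 count. The causes were not tested. Adding the counts of near-identical copies, chosen after seeing the data, moved mt-Nd3 from 315 to 852 and Atp5g2 from 280 to 760.3 CPM per kb. Detection of rare isoforms depends on the count required: Cox4i2 was found in 12.2% of cells at 5 counts, 23.0% at 1 count and 0% at 10, Cox6b2 in 37.8%, 55.4% and 21.6%, and Cox7a1 in 24.3% at 5 counts and 14.9% at 10. No paired analysis was possible because there is 1 group and the replicate numbers only name cells. With 9 Actc1-high cells and unknown embryos, differences between embryos and between states cannot be told apart.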

Other observations

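Among the 9 Actc1-high cells the mitochondrial share did not follow the nuclear share. The cell of highest mitochondrial share, 4.43%, had a nuclear share of 3.87%, and the cell of lowest mitochondrial share, 1.39%, had 3.46%. The cell of highest nuclear share, 4.07%, had a mitochondrial share of 2.11%. The levels of Cox7a1 in intermediate cells reached 48.4 CPM, close to the 49.5 CPM of the highest Actc1-high cell, while 7 of the 14 were at 0.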
